A study of Mus musculus with 48 samples.

Results

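RLTR repeats are families of rodent long terminal repeats (LTRs), the regulatory ends left behind by endogenous retroviruses (ERVs), together with a few of the internal retroviral sequences that lie between them. The families described here were all repeat types in the deposited expression table whose name begins with RLTR and a number, 186 of 1554 repeat types. They comprised 176 LTR types and 10 internal types (names ending in -int) from 44 numbered families (stems), and 177 of them had enough reads to be tested. The other 9 types held 0 to 129 reads each over all libraries, and 2 of them had no read at all. An LTR carries the promoter and enhancer of its retrovirus, and solitary LTRs far outnumber complete proviruses in the mouse genome. Most copies are held silent by DNA methylation and by histone H3 lysine 9 methylation, which is placed by SETDB1 recruited through TRIM28. In mouse pluripotent cells some LTR families nevertheless act as promoters or enhancers that bind factors such as OCT4, SOX2, NANOG and ESRRB, and RLTR9 and RLTR13 types are among those known for this.

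The study sequenced the 5' ends of poly(A) RNA (single-cell tagged reverse transcription, STRT, applied here to bulk samples) in 48 mouse libraries from 20 conditions, and asked how reprogramming of fibroblasts differs between polycistronic cassettes that encode the reprogramming factors in another order, MKOS (Myc, Klf4, Oct4, Sox2) and OKMS, which carries a shorter Klf4. Each cassette is doxycycline-inducible and was targeted, with a CAG-promoter-driven rtTA, to an intron of Sp3 in TNG embryonic stem cells (ESCs), a line with a Nanog-GFP reporter. Transgenic mouse embryonic fibroblasts (MEFs) came from chimeric embryos and were mixed with wild-type MEFs for reprogramming in doxycycline and vitamin C. Cells were sorted at day 10 by the series' design text, while the growth protocol names 10 or 15 days.

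The sorted populations (3 libraries each) were named by surface phenotype. E-CAD+ and E-CAD- are E-cadherin positive and negative, 2 denotes CD44 low with ICAM1 low, 3 denotes CD44 low with ICAM1 high, and NG marks the Nanog-GFP reporter as on (NG+) or off (NG-). MKOS cells were sampled as E-CAD+ 2NG-, 3NG- and 3NG+, and OKMS cells as the same gates plus E-CAD- 2NG- and 3NG-. The unsorted conditions (2 libraries each) were wild-type, MKOS and OKMS MEFs, MKOS and OKMS induced pluripotent stem cells (iPSCs) without doxycycline (-dox) and in 2i medium, the iPSC line D6 with a single piggyBac MKOS integration, and ESCs of the lines TNG, TNG MKOS, TNG OKMS and E14 (a wild-type line). The labels do not say whether replicates were separate cultures or sorts, so the p-values measure the spread between these libraries, which may be technical. In such bulk libraries fewer cells expressing a repeat and less of its RNA per cell cannot be told apart.

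Libraries held 1429717 to 14174725 reads on transcripts, and a count of 3 reads corresponded to 0.212 to 2.1 RPM (reads-per-million, relative to reads on transcripts), the highest value belonging to OKMS 3NG+ replicate 2. Levels below are in RPM on this scale. They sum sense and antisense reads over every copy of the type in the genome, so a level says nothing about which copy was read. The 7 fibroblast markers were between 2986.9 and 5211.4 RPM in sum in MEFs and between 2.91 and 8.80 in ESCs, and the 7 pluripotency markers were between 2.04 and 11.5 in MEFs and between 10826 and 17835 in ESCs. The 5 macrophage markers (Ptprc, Csf1r, C1qa, Lyz2, Cd68) stood apart from this pattern: their sum was 3.64 to 12.03 in ESCs, 14.6 to 228.6 in MEFs, and from 20.95 to 1814.6 in the sorted libraries. In every sorted condition replicate 3 had the lowest macrophage sum. Epithelial marker sums were 12.9 to 37.9 in MEFs and 665.1 to 1289.6 in E-CAD+ NG- cells, while primitive endoderm sums stayed at or below 60.7 and trophoblast sums at or below 53.9 in every library.

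A small number of types carried most RLTR reads. RLTR types together held 893882 reads, 1.04% of all reads on repeats, although their copies make up 4.67% of the length of all repeat types in the table. The 12 most abundant types held 54.3% of those reads. RLTR9E was first both by level and by level per length, with a mean over the 20 conditions of 352 RPM and 750.0 RPM per megabase of its copies. RLTR19-int, an internal retroviral sequence, had a mean level of 262 and 322 per megabase. RLTR17 followed with a mean level of 199 and 248 per megabase. RLTR34B_MM held fewer reads (mean level 85.4) but ranked after only 3 other RLTR types per length, at 440 per megabase. The other types of the first 12 were RLTR1B, RLTR11A, RLTR16B_MM, RLTR11A2, RLTR13G, RLTR1B-int, RLTR9D and RLTR11B. The median over all 186 types was a mean level of only 4.97, and 83 types were read in every library.

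The summed RLTR level differed in steps between fibroblasts, intermediates and pluripotent cells, a description for which no test was made. The lowest, median and highest sums were 720.8, 880 and 1155 RPM in the 6 MEF libraries. They were 1202, 1307 and 1474 in the 6 OKMS E-CAD- libraries, which do not overlap with the MEFs. Among E-CAD+ NG- libraries the sums were 1661, 2041 and 3033 with MKOS. With OKMS they were 1648, 1818 and 2026, so the cassettes overlapped. In the 6 libraries of 3NG+ cells they were 3142, 3985 and 5526, above every NG- library. The iPSCs (3009, 3876 and 4936 in 10 libraries) and the ESCs (2727, 3179 and 4307 in 8) overlapped with the 3NG+ cells. The share of repeat reads on RLTR types was 0.2013 to 0.4336% in MEFs and 1.056 to 1.851% in ESCs, but the steps in between overlapped. OKMS E-CAD- libraries (0.407 to 0.8641%) overlapped with the MEFs. The 3NG+ libraries (0.634 to 2.279%) overlapped with the E-CAD+ NG- libraries (0.7302 to 1.461% with MKOS, 0.7023 to 1.068% with OKMS). Of the 177 tested types, 89 had their highest condition mean in an iPSC condition, 42 in an ESC condition, 21 in 3NG+ cells and 8 in MEFs.

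**Figure D1:**
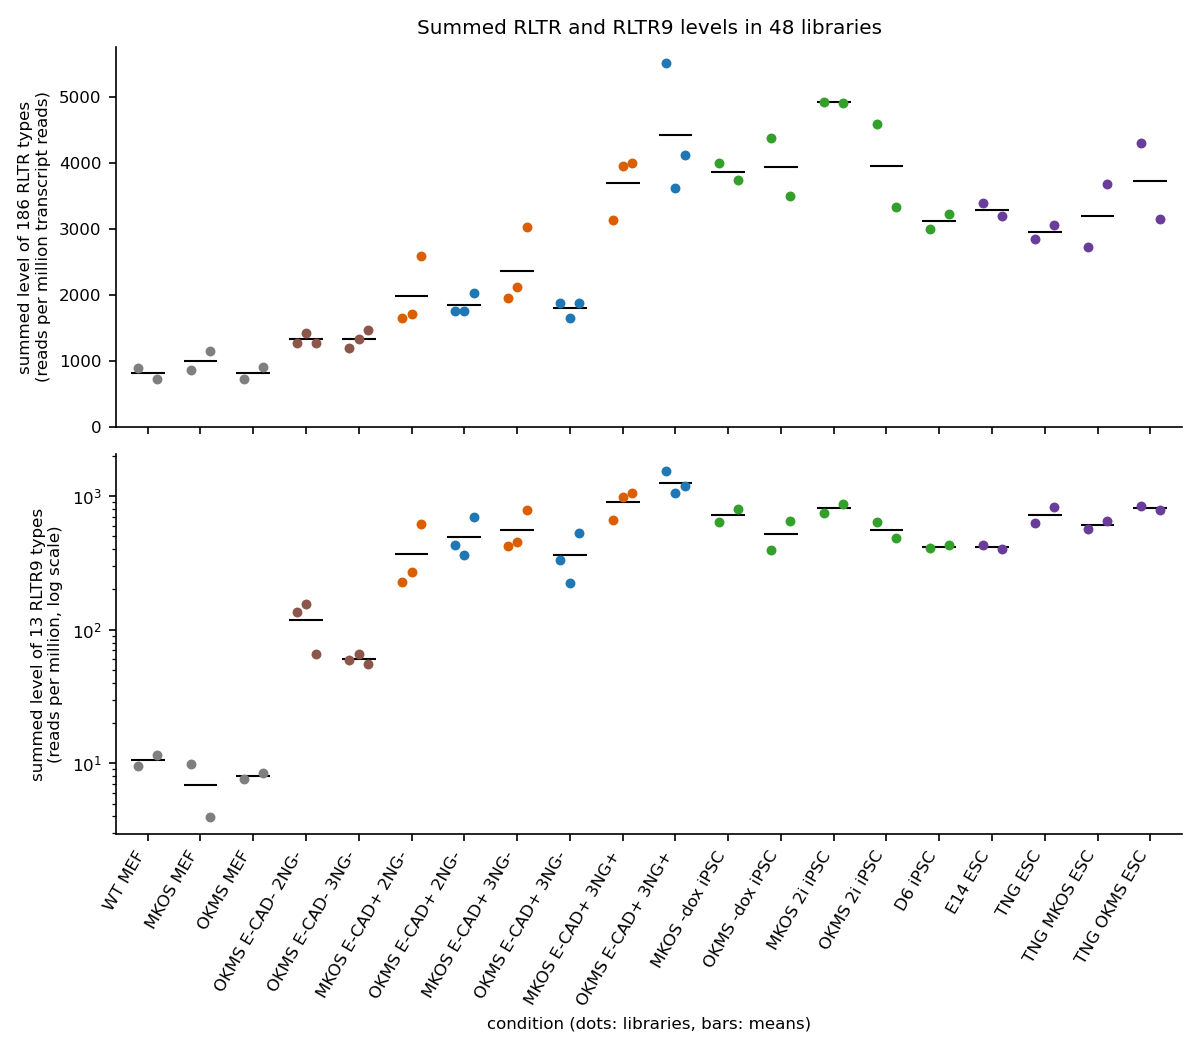
Summed level of all 186 RLTR types and of the 13 RLTR9 types in every library (RPM; linear axis for all types, log axis for RLTR9), ordered by condition. Each point is a library and each bar a condition mean. MEFs lie between 720.8 and 1155 for all RLTR types and between 3.988 and 11.5 for RLTR9, and the 3NG+ cells reach 5526 and 1530.

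ESCs and MEFs, the end points of reprogramming, differed in RLTR types mainly in one direction. In the ESCs 93 of 177 RLTR types were higher and 6 were lower at an adjusted p of 0.05 (edgeR quasi-likelihood test, Benjamini-Hochberg over all 16729 transcripts and repeat types tested). Over everything tested 58.3% was called, 29.5% higher and 28.7% lower. The share of RLTR types called, 55.9%, was therefore near the background, and the difference lay in the split between higher and lower. The median log2 fold change was 1.36 for RLTR types, 0.33 for the 922 other repeat types tested and 0.04 for everything tested. With the repeat types fitted alone and scaled to their own reads the RLTR median was 0.92, with 61 types higher and 11 lower.

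RLTR9 was the family with the largest differences. Of its 13 types, all LTRs, 11 were higher in ESCs and none was lower, under each of the 4 scalings tried. RLTR9E had 1.031, 2.342 and 3.104 RPM as the lowest, median and highest of the 6 MEF libraries. In the 8 ESC libraries these values were 210.4, 424.4 and 604.2. Every ESC library was far above every MEF library, at a log2 fold change of 7.52 ± 0.35 (SE, adjusted p = 3.67e-21). RLTR9A3A, another LTR of the family, was at 0 in 4 of the 6 MEF libraries and reached 1.64 in MKOS MEF replicate 1, against 24.6 to 76.2 in ESCs (log2 fold change 8.51 ± 0.76, adjusted p = 1.46e-12). RLTR9C and RLTR9A2 were close to absent in MEFs, with highest values of 0.687 and 0.557, and lay at 3.05 to 20.2 and at 5.32 to 11.9 in ESCs. Of the other large families, RLTR11 had 5 of 5 types higher, RLTR12 8 of 9, RLTR10 7 of 10, RLTR31 6 of 8, RLTR1 5 of 7, RLTR13 9 of 22 and RLTR20 8 of 16. RLTR10D2 led the RLTR10 family, at 0 to 1.36 in MEFs and 15.2 to 32.9 in ESCs (log2 fold change 6.44 ± 0.52, adjusted p = 7.07e-14).

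The opposite pattern was seen in few types and mostly in RLTR6, the LTR of the VL30 class of retrovirus-like elements, which are known to be transcribed in fibroblasts. All 4 RLTR6 types were lower in ESCs, under each of the 4 scalings tried, and they made up 4 of the 6 RLTR types called lower. RLTR6_Mm was at 8.68 and 5.84 in wild-type MEFs, 96.6 and 89.9 in MKOS MEFs and 13.9 and 27.1 in OKMS MEFs. In ESCs its 8 values ran from 0 to 2.47, all below the MEFs, at a log2 fold change of -4.76 ± 0.57 (adjusted p = 2.5e-09). The MKOS MEFs thus held several times more RLTR6_Mm reads than the other MEFs, and RLTR6B_Mm showed the same order (67.4 and 70.9 against 6.94 to 15.8 in the other MEFs). MMVL30-int, the internal part of VL30 and not an RLTR type by name, had means of 90.8 in wild-type, 167 in MKOS and 130 in OKMS MEFs and of 3.97 to 6.86 in the ESC lines. The call of RLTR6C_Mm (log2 fold change -2.31 ± 0.95, adjusted p = 0.035) was lost without any 1 of 7 of the 14 libraries compared (adjusted p = 0.0609 to 0.101): E14 replicate 2, TNG replicate 1, TNG MKOS replicate 2, TNG OKMS replicate 2, wild-type MEF replicate 2, MKOS MEF replicate 1 and OKMS MEF replicate 1. The other types called lower were RLTR44A and RLTR20A1. All 7 fibroblast markers were lower in ESCs too, from sums of 2986.9 to 5211.4 to sums of 2.91 to 8.80, and their part in the fall of RLTR6 was not tested.

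**Figure D2:**
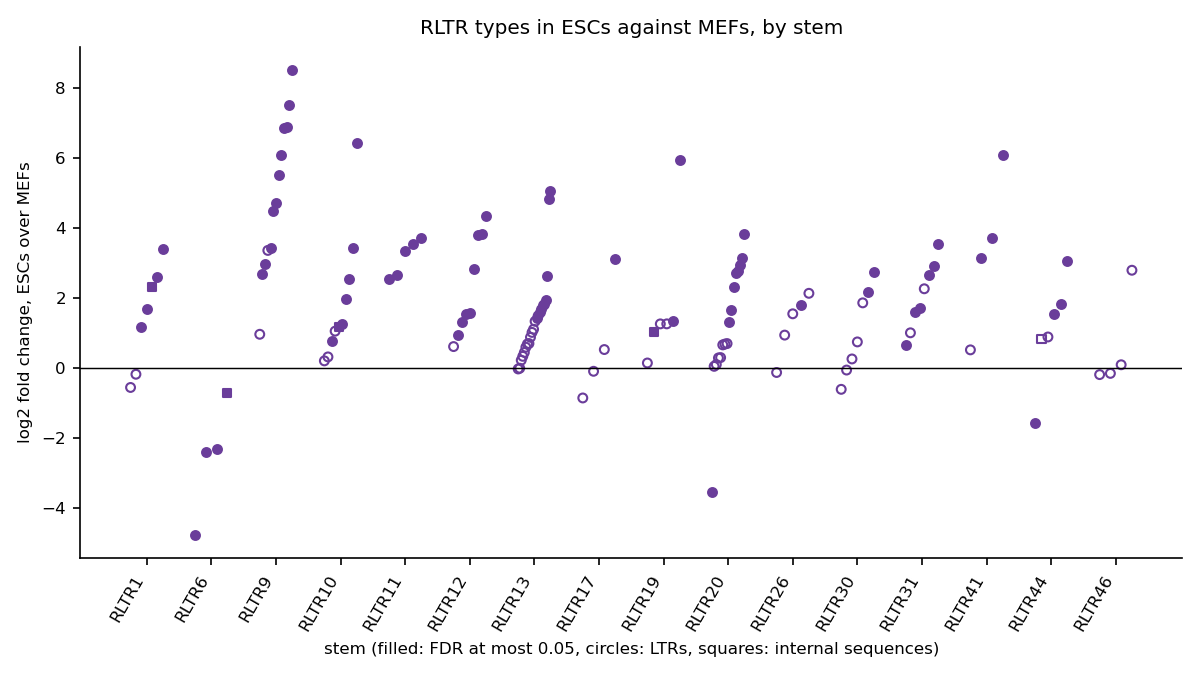
Log2 fold change of each tested RLTR type in ESCs against MEFs, by family, for families with at least 4 tested types. Filled points were called at an adjusted p of 0.05, circles are LTRs and squares internal sequences. RLTR9 types lie far to the higher side, up to 8.51, and the 4 RLTR6 types lie on the lower side, down to -4.76.

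RLTR4_Mm, an LTR of murine leukaemia virus-like elements, was not called between ESCs and MEFs, with 16.1 to 49.7 in MEFs and 11.7 to 39.0 in ESCs. RLTR19-int was already read at 140 to 196 in MEFs and was higher in ESCs (230 to 620) by only 1.03 ± 0.13 on the log2 scale (adjusted p = 6e-09). RLTR13G was uneven between replicates of pluripotent lines, at 291 and 54.0 in OKMS -dox iPSCs, 49.6 and 257 in TNG MKOS ESCs and 441 and 67.1 in TNG OKMS ESCs.

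The Nanog-GFP- intermediates of both cassettes already showed many of these differences from the MEFs that carry the same cassette. Among MKOS E-CAD+ NG- cells (2NG- and 3NG- averaged) 33 RLTR types were higher than in MKOS MEFs and 5 were lower, beside 31.1% of everything tested (16.1% higher and 14.9% lower). Among OKMS E-CAD+ NG- cells 39 were higher than in OKMS MEFs and 5 were lower, beside 32.2% (16.2% higher and 16% lower). The share of RLTR types called, 21.5% and 24.9%, was thus below that of everything tested. The median log2 fold change of RLTR types was 0.64 for MKOS and 0.92 for OKMS, and 0.57 and 0.80 with types at 0 in the MEFs set to their lower bound. The medians of the other repeat types were -0.26 and 0.01. These comparisons share no library, although they came from the same fit. In both, 27 types were higher, out of 33 and 39, and 3 were lower, out of 5 and 5. The overlap over everything tested was not counted, so no agreement particular to RLTR types is shown.

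RLTR9 again had the largest changes, with 8 of 13 types higher in MKOS intermediates and 9 of 13 in OKMS intermediates. RLTR9E was at 2.46 and 2.22 RPM in MKOS MEFs. It was at 180, 234 and 517 in MKOS 2NG- cells and at 328, 364 and 636 in 3NG- cells, a log2 fold change of 7.18 ± 0.58 (adjusted p = 2.62e-12). In OKMS it went from 2.23 and 1.03 in MEFs to 267, 227 and 439 in 2NG- and 224, 152 and 356 in 3NG- cells, a log2 fold change of 7.56 ± 0.61 (adjusted p = 1.82e-12). All 12 intermediate libraries thus lay above all MEF libraries, at levels within or near the range of the ESCs. RLTR9A3A had no read in the OKMS MEFs and 21.2 to 90.9 RPM in the OKMS intermediates, which is at least 221-fold higher against a floor of 3 reads over the MEF group. RLTR9C had no read in the MKOS MEFs and was at least 16.3-fold higher in the MKOS intermediates.

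RLTR10D2 had 1 read in the MKOS MEFs and 17.5 to 36.7 RPM in the MKOS intermediates, a ratio of pooled reads of 358 with a counting interval of 64.1 to 14200. In OKMS it had 2 reads in the MEFs and 2.90 to 17.4 RPM in the intermediates, a ratio of 65 with a counting interval of 17.9 to 539. Among RLTR13 types, 8 of 22 were higher in MKOS and 7 of 22 in OKMS intermediates. RLTR13B1 was at 1.02 and 1.33 in MKOS MEFs and at 35.1 to 158 in the MKOS intermediates (log2 fold change 5.89 ± 0.83, adjusted p = 5.26e-07). RLTR13D6 had 2 reads in the MKOS MEFs and 6.73 to 13.96 RPM in the intermediates. RLTR9D (log2 fold change 5.52 ± 0.68, adjusted p = 3.1e-08) and RLTR41A2 (2 reads in the MEFs, ratio 37.8 with a counting interval of 10.3 to 314) completed the types with the largest rises in OKMS.

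Of the 4 RLTR6 types 3 fell with MKOS and 4 with OKMS. RLTR6_Mm dropped from 96.6 and 89.9 in MKOS MEFs to between 0.271 and 4.80 in the MKOS intermediates (log2 fold change -5.51 ± 0.71, adjusted p = 7.81e-08). In OKMS it went from 13.9 and 27.1 to between 0 and 10.2, where OKMS 3NG- replicates 1 and 2 (8.21 and 10.2) were higher than the other 4 libraries (log2 fold change -3.99 ± 0.76, adjusted p = 7.04e-05). RLTR6B_Mm and RLTR6-int were lower in both as well, although RLTR6-int changed little (log2 fold changes of -1.17 and -1.03). The RLTR6-int call was lost without either MKOS MEF library (adjusted p = 0.053 to 0.078), and in OKMS without 3NG- replicate 3 or either MEF library (adjusted p = 0.0509 to 0.239). RLTR6B_Mm lost its call in OKMS without OKMS MEF replicate 1 (adjusted p = 0.126). RLTR4_Mm fell with MKOS, from 25.6 and 28.1 to between 4.28 and 10.5 (log2 fold change -2.06 ± 0.43, adjusted p = 0.000211). RLTR10-int, lower with MKOS at -1.86 ± 0.59 (adjusted p = 0.0132), lost its call without MKOS MEF replicate 2 (adjusted p = 0.314). RLTR6C_Mm and RLTR30D2_MM were lower with OKMS at adjusted p = 0.0455 and 0.0411, and their calls were lost without any 1 library other than 2NG- replicate 3 for RLTR6C_Mm (adjusted p = 0.0567 to 0.237) and other than 2NG- replicate 2 or 3NG- replicate 1 for RLTR30D2_MM (0.0521 to 0.198).

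Macrophage and fibroblast markers differed between these groups too. In the MKOS intermediates 4 of 5 macrophage markers were higher than in MKOS MEFs (sums of 148.9 to 1814.6 against 14.6 and 16.7), and in the OKMS intermediates none was called (20.95 to 360.9 against 107.5 and 120.1). All 7 fibroblast markers were lower in both, with sums of 350.6 to 931.4 in MKOS and 69.0 to 272.1 in OKMS intermediates. In replicate 3 the macrophage sums were 148.9 and 153.0 with MKOS, still above the MKOS MEFs, and 20.95 and 126.7 with OKMS. Restricting the sorted libraries to replicate 3 therefore does not remove the MKOS difference. The part of these markers in the RLTR changes was not tested.

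The change from MEFs was then compared between cassettes directly. Only RLTR41, an LTR type, differed at an adjusted p of 0.05, beside 1.39% of everything tested. For 0.604% the difference, OKMS minus MKOS, was positive and for 0.783% negative. It was at 1.33 and 3.54 in MKOS MEFs and at 30.0 to 34.4 in all 6 MKOS intermediate libraries. In OKMS it was at 5.57 and 7.67 in MEFs, 6.65, 10.6 and 8.04 in 2NG- cells and 26.9, 29.0 and 9.65 in 3NG- cells. The change was smaller in OKMS by 2.66 ± 0.58 on the log2 scale (OKMS minus MKOS -2.66, adjusted p = 0.00829). The call was lost without MKOS MEF replicate 1 or OKMS MEF replicate 2 (adjusted p = 0.078 to 0.196), leaving 0 types, and 2 types were called without MKOS 2NG- replicate 3.

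**Figure D3:**
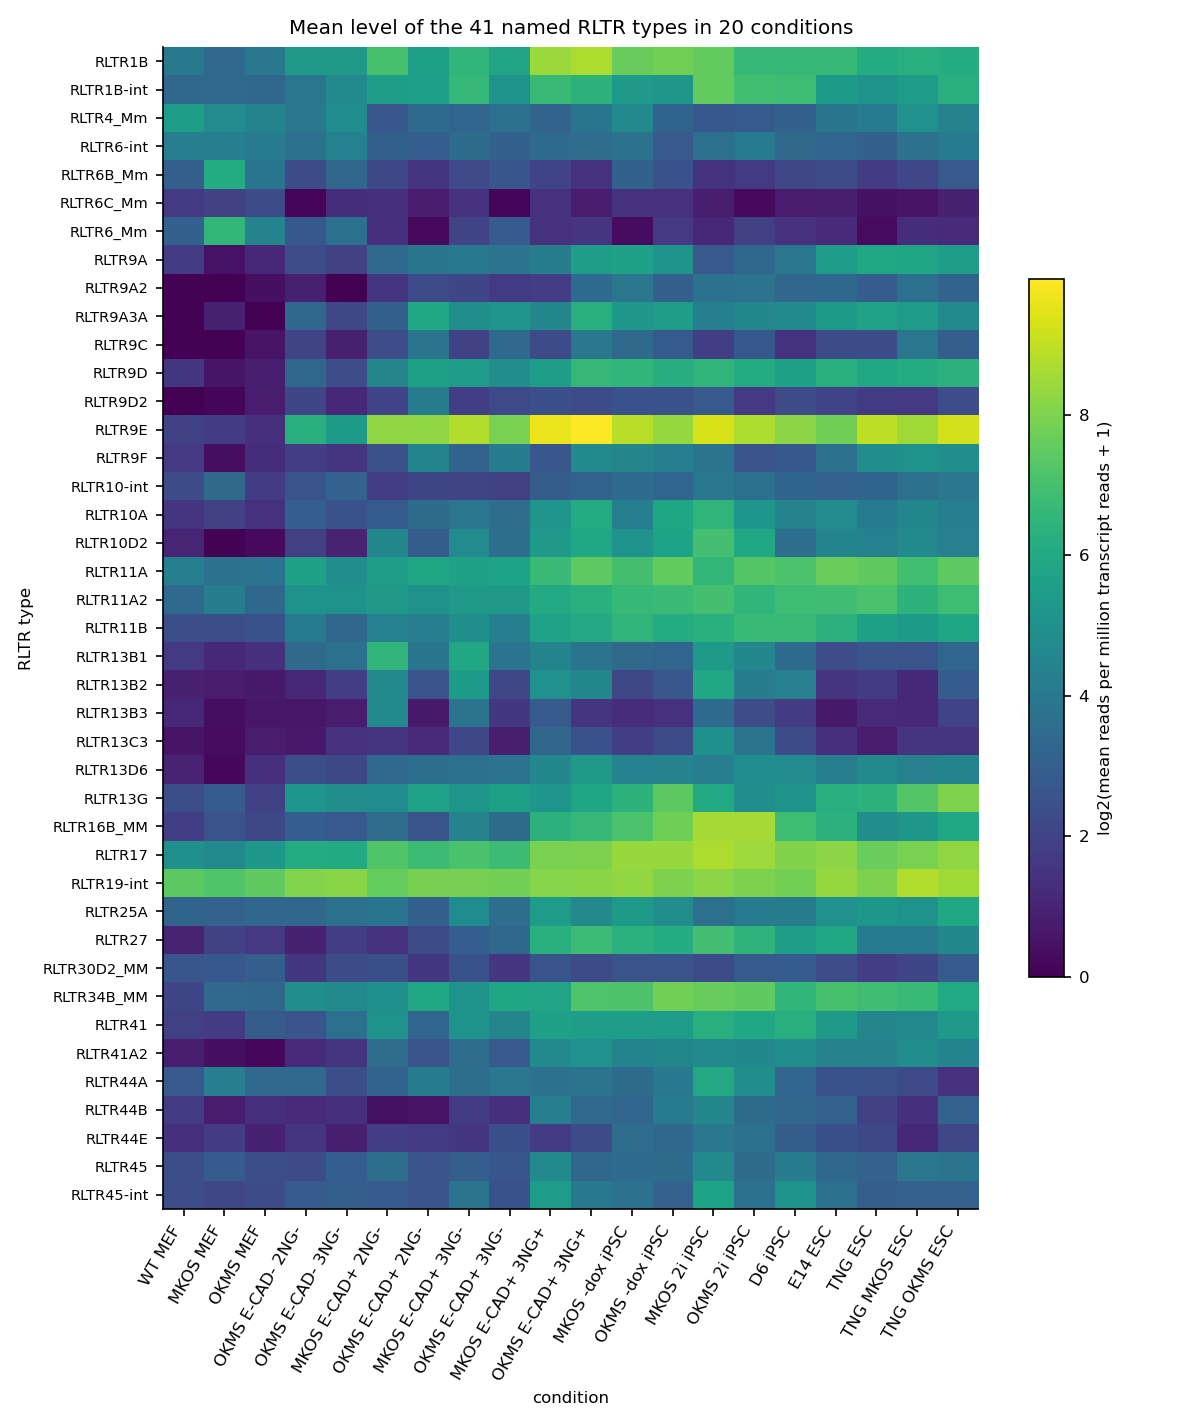
Mean level of the 41 named RLTR types in each of the 20 conditions, coloured by log2 of mean RPM plus 1 (brighter is higher), with conditions ordered from MEFs to ESCs. RLTR9E is brightest in OKMS 3NG+ cells, with a mean of 972, and RLTR6_Mm in MKOS MEFs, with libraries at 96.6 and 89.9.

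Within OKMS reprogramming the E-cadherin gate separated RLTR9 levels. E-CAD+ NG- cells had 23 RLTR types higher and 2 lower than E-CAD- NG- cells in the same gates, beside 7% of everything tested (4.66% higher and 2.34% lower), and 8 of the 23 were RLTR9 types. RLTR9E was at 88.2, 115 and 32.9 in E-CAD- 2NG- cells and 36.3, 50.6 and 38.9 in E-CAD- 3NG- cells. All 6 lay below the E-CAD+ libraries, whose lowest, median and highest values were 151.6, 247.0 and 438.8 (log2 fold change 2.40 ± 0.27, adjusted p = 2.95e-08). The E-CAD- values were still well above every MEF value, of which the highest was 3.10. RLTR9A2 had no read in 4 of 6 E-CAD- libraries and 1.88 to 4.73 in E-CAD+ cells (log2 fold change 4.59 ± 0.93, adjusted p = 0.0011). RLTR9F (3.32), RLTR9A3A (3.03) and RLTR9D (2.74) were the next by log2 fold change, without overlap between the gates. The types called lower were both of the RLTR6 family. RLTR6-int was lower by little (log2 fold change -1.01 ± 0.27, adjusted p = 0.0152), a call lost without E-CAD+ 3NG- replicate 3 (adjusted p = 0.0518). The macrophage sum was 56.4 to 895.4 in E-CAD- and 20.95 to 360.9 in E-CAD+ libraries, and the fibroblast sum 516.4 to 841.5 and 69.0 to 272.1. Pluripotency marker sums were 144.1 to 231.4 in E-CAD- and 706.6 to 5159.6 in E-CAD+ libraries, and epithelial sums 67.5 to 201.5 and 688.9 to 1094.4. The part of all these markers in the RLTR differences was not tested. With only the 12 libraries of this comparison in the fit 16 types were called, and 16 with replicate 3 alone.

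The cassettes were compared within each E-CAD+ gate. In 2NG- cells 5 RLTR types were higher with MKOS and 4 were higher with OKMS, beside 4.94% of everything tested (2.79% higher and 2.16% lower with MKOS). In 3NG- cells 3 were higher with MKOS and 1 with OKMS, beside 2.04% (1.33% and 0.711%). In 3NG+ cells 2 were higher with OKMS and none with MKOS, beside 0.675% (0.329% and 0.347%).

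The types that were higher with MKOS included members of a group of RLTR13 LTRs. RLTR13B3 was at 16.3, 18.6 and 40.2 in MKOS 2NG- cells and at 0.170, 0.645 and 1.06 in OKMS 2NG- cells, values that lay within the MEF range of 0 to 1.83 (log2 fold change 5.08 ± 0.96, adjusted p = 0.000709). RLTR13B1 was at 56.5, 54.2 and 158 with MKOS and 12.6, 17.7 and 10.4 with OKMS (log2 fold change 2.66 ± 0.58, adjusted p = 0.00327). RLTR13B2 stood at 20.5, 17.9 and 35.6 against 5.45, 4.19 and 5.71. In 3NG- cells RLTR13B2 was at 25.9, 45.0 and 54.6 with MKOS and 2.68, 4.28 and 3.06 with OKMS (log2 fold change 3.53 ± 0.63, adjusted p = 0.000718). In 3NG+ cells its values overlapped, at 21.0, 36.5 and 38.1 with MKOS and 35.9, 12.6 and 19.0 with OKMS. RLTR41 in 2NG- cells was higher with MKOS by 1.87 ± 0.37 on the log2 scale (adjusted p = 0.00122), and RLTR1B-int in 3NG- cells by 1.45 ± 0.28 (adjusted p = 0.00216).

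RLTR34B_MM and RLTR9 types were higher with OKMS. RLTR34B_MM was at 32.6, 30.6 and 29.3 with MKOS and 55.4, 62.2 and 62.4 with OKMS in 2NG- cells, and it did not overlap between cassettes in any of the 3 gates. In 3NG+ cells it was at 44.4, 60.2 and 58.2 with MKOS and 140, 172 and 121 with OKMS (log2 fold change -1.54 ± 0.27, adjusted p = 0.00127). In 2NG- cells 3 of 13 RLTR9 types were lower with MKOS and none was higher. RLTR9A3A was at 5.92, 0.886 and 15.6 with MKOS and 47.2, 37.4 and 90.9 with OKMS (log2 fold change -3.09 ± 0.66, adjusted p = 0.00282). RLTR9F was at 3.16, 2.80 and 7.45 against 13.5, 11.9 and 39.2 in 2NG- cells, and at 5.47, 3.56 and 7.30 against 24.2, 22.4 and 30.5 in 3NG+ cells (log2 fold change -2.39 ± 0.56, adjusted p = 0.0316). RLTR9E, the most abundant type of the family, was not called between cassettes in any gate.

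Several of these calls were lost when 1 library was left out, while the log2 fold changes kept their sign. That of RLTR34B_MM in 3NG- cells, for example, stayed between -1.03 and -0.85. In 2NG- cells the count fell from 9 to 5 without MKOS replicate 2. In 3NG- cells it fell from 4 to 2 without MKOS replicate 2 or 3 or OKMS replicate 1 or 2, and in 3NG+ cells from 2 to 1 without MKOS replicate 1 or 2 or OKMS replicate 1 or 3. In 2NG- cells RLTR10D2 (adjusted p = 0.0729 to 0.205) and RLTR9D2 (0.0599 to 0.134) lost their call without any 1 library other than OKMS replicate 3. RLTR13B2 lost it without MKOS replicate 3 or any OKMS library (0.0641 to 0.109), RLTR9F without MKOS replicate 1 or 2 or OKMS replicate 3 (0.0527 to 0.142), and RLTR34B_MM without MKOS replicate 2 or 3 or OKMS replicate 3 (0.0521 to 0.0572). In 3NG- cells RLTR13B1 lost it without any 1 library other than MKOS replicate 1 (0.057 to 0.242), and RLTR34B_MM without any 1 of the 6 libraries (0.0713 to 0.201). RLTR9F in 3NG+ cells lost its call without any 1 of 4 libraries (MKOS replicates 1 and 2, OKMS replicates 1 and 3; adjusted p = 0.0562 to 0.159). Macrophage sums overlapped between the cassettes in each gate, at 153.0 to 1524.2 (MKOS) and 126.7 to 290.1 (OKMS) in 2NG- cells, 148.9 to 1814.6 and 20.95 to 360.9 in 3NG- cells, and 67.1 to 863.8 and 38.9 to 707.1 in 3NG+ cells, and no macrophage marker was called. Fibroblast sums were higher with MKOS without overlap in 2NG- cells (350.6 to 751.2 against 69.0 to 220.6, 4 of 7 markers called higher) and in 3NG- cells (517.8 to 931.4 against 148.1 to 272.1, 1 of 7 called higher). In 3NG+ cells they overlapped, at 92.4 to 579.4 and 135.6 to 287.8, with none called. The part of these markers in the differences between cassettes was not tested. With replicate 3 alone, 1 library a group, no type was called between cassettes in any gate.

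**Figure D4:**
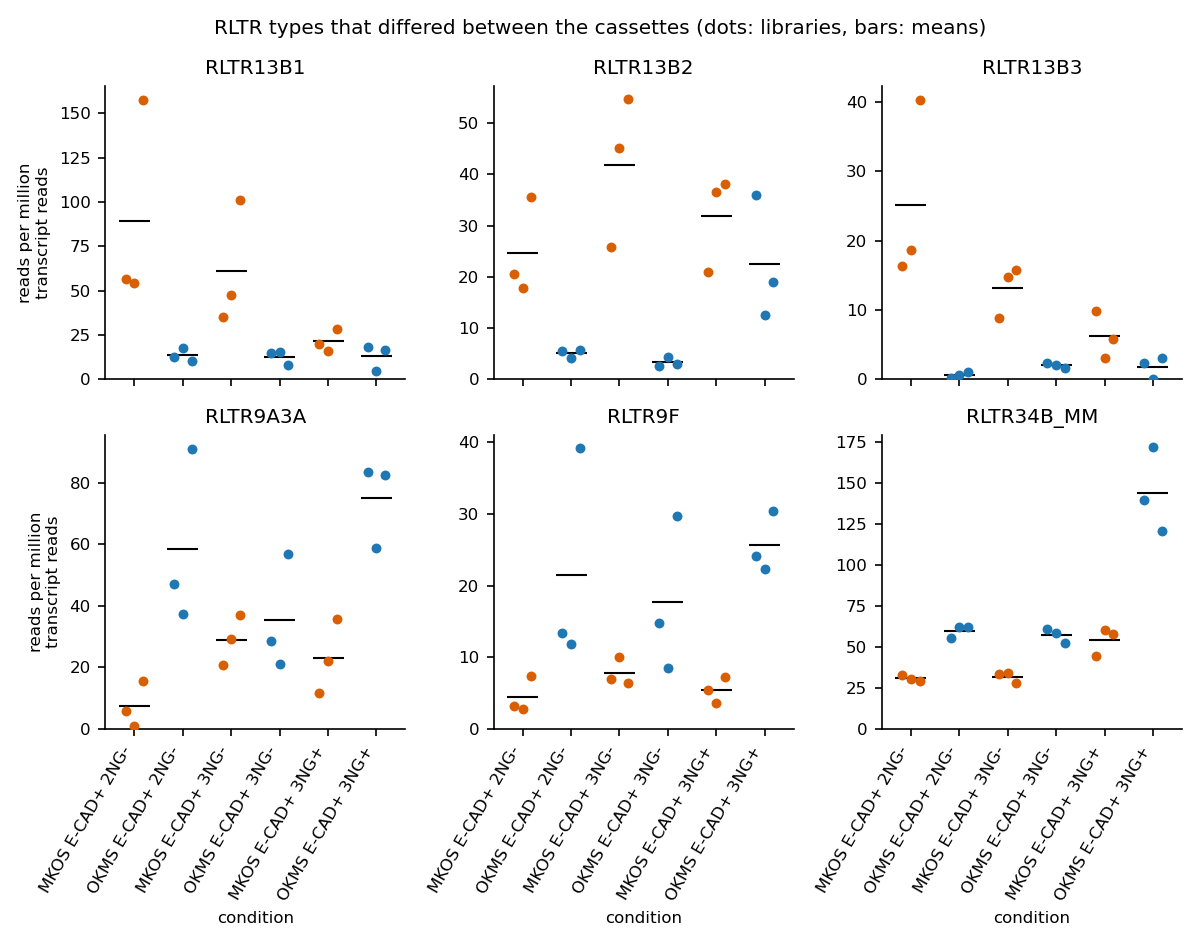
Levels of 6 RLTR types that differed between MKOS and OKMS (RPM, linear axes from 0) in the 3 E-CAD+ gates, with a point per library and a bar at the mean. RLTR13B3 separates in 2NG- cells, with MKOS at 16.3 to 40.2 and OKMS at 0.170 to 1.06, and RLTR34B_MM is higher with OKMS in each gate.

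Gain of the Nanog-GFP reporter went with further rises only, among the RLTR types called. With OKMS 33 types were higher in 3NG+ than in 3NG- cells and none was lower, beside 6.61% of everything tested (3.54% higher and 3.07% lower). With MKOS 9 were higher and none was lower, beside 1.81% (0.777% higher and 1.03% lower). The comparisons share no library, although they came from the same fit, and 8 types were higher in both, out of 33 and 9. Here too the overlap over everything tested was not counted. The medians of all RLTR types tested were 1.08 (OKMS) and 0.58 (MKOS), and 0.38 and 0.33 for the other repeat types. With the repeat types fitted and scaled alone, the RLTR medians were 0.46 and 0.17, and 14 and 5 types were called.

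RLTR27 and RLTR16B_MM were among the largest changes with both cassettes. RLTR27 was low in MEFs (0.205 to 5.54) and in all NG- E-CAD+ cells (0.443 to 13.02). It was at 2.90, 4.41 and 13.02 in MKOS 3NG- cells and 47.95, 97.98 and 84.9 in 3NG+ cells (log2 fold change 3.71 ± 0.57, adjusted p = 0.000158). With OKMS it went from 6.69, 7.38 and 12.7 to 147, 91.6 and 94.9 (log2 fold change 3.87 ± 0.57, adjusted p = 2.12e-05). RLTR16B_MM was already called higher in the NG- intermediates of both cassettes than in their MEFs. It rose further in this step, from 20.9, 18.7 and 21.7 to 86.4, 62.6 and 96.3 with MKOS (log2 fold change 2.17 ± 0.37, adjusted p = 0.000659). With OKMS it went from 5.80, 7.62 and 17.9 to 111, 67.8 and 111 (log2 fold change 3.46 ± 0.40, adjusted p = 2.88e-07). No 3NG+ library overlapped with a 3NG- library of its cassette for either type.

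RLTR1B was at 107, 57.4 and 112 in MKOS 3NG- cells and 235, 455 and 344 in 3NG+ cells, and at 54.9, 46.9 and 63.8 against 642, 252 and 339 with OKMS. Its 3NG+ values were above those of every ESC library, the highest of which was 113. The MKOS call (log2 fold change 2.09 ± 0.43, adjusted p = 0.00525) was lost without 3NG- replicate 2 or 3NG+ replicate 2 (adjusted p = 0.0568 to 0.0633), whereas OKMS kept it at 3.12 ± 0.45 (adjusted p = 1.41e-05). RLTR45-int and RLTR45 were both higher in MKOS 3NG+ cells. RLTR45-int rose from 9.60, 8.97 and 20.8 to 54.3, 31.0 and 42.0 with MKOS, and from 4.73, 5.48 and 4.002 to 20.8, 10.5 and 14.6 with OKMS. RLTR44B and RLTR45 with MKOS (adjusted p = 0.0418 and 0.0292) lost their calls without any 1 library other than 3NG+ replicate 1 (0.0606 to 0.183) and without any 1 of the 6 libraries (0.0531 to 0.168).

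With OKMS 5 of 5 RLTR11 types, 5 of 10 RLTR10 types and 3 of 13 RLTR9 types were higher in 3NG+ cells. RLTR10A went from 6.60, 3.33 and 22.6 to 80.8, 70.6 and 49.6 (log2 fold change 2.83 ± 0.59, adjusted p = 0.00192). RLTR13B2, high in MKOS cells of every gate, rose with OKMS from 2.68, 4.28 and 3.06 to 35.9, 12.6 and 19.0 (log2 fold change 3.02 ± 0.62, adjusted p = 0.00175). RLTR9E rose with OKMS from 224, 152 and 356 to 1190, 817 and 910 (log2 fold change 2.20 ± 0.37, adjusted p = 0.000137). With MKOS it was at 328, 364 and 636 in 3NG- and at 580, 887 and 888 in 3NG+ cells, with overlap and no call. No RLTR type passed the test of the difference between the cassettes in this step (edgeR quasi-likelihood test; 18 types at an unadjusted p under 0.05, 0 by DESeq2), beside 0.0239% of everything tested (0.012% higher and 0.012% lower), so the larger count in OKMS is not shown to be a different response.

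The MKOS count was sensitive to single libraries: it fell from 9 to 2 without 3NG- replicate 2, 4 without 3NG- replicate 1 and 3 without 3NG+ replicate 2. The OKMS count fell from 33 to 19 without 3NG+ replicate 1 and to 21 without 3NG- replicate 1, and was 34 without 3NG+ replicate 2. The macrophage sum was 148.9 to 1814.6 and 67.1 to 863.8 in MKOS 3NG- and 3NG+ cells. In OKMS it was 20.95 to 360.9 and 38.9 to 707.1, where 3NG+ replicate 2 held the 707.1. The part of the macrophage markers in these changes was not tested. With replicate 3 alone 0 (MKOS) and 1 (OKMS) types were called.

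**Figure D5:**
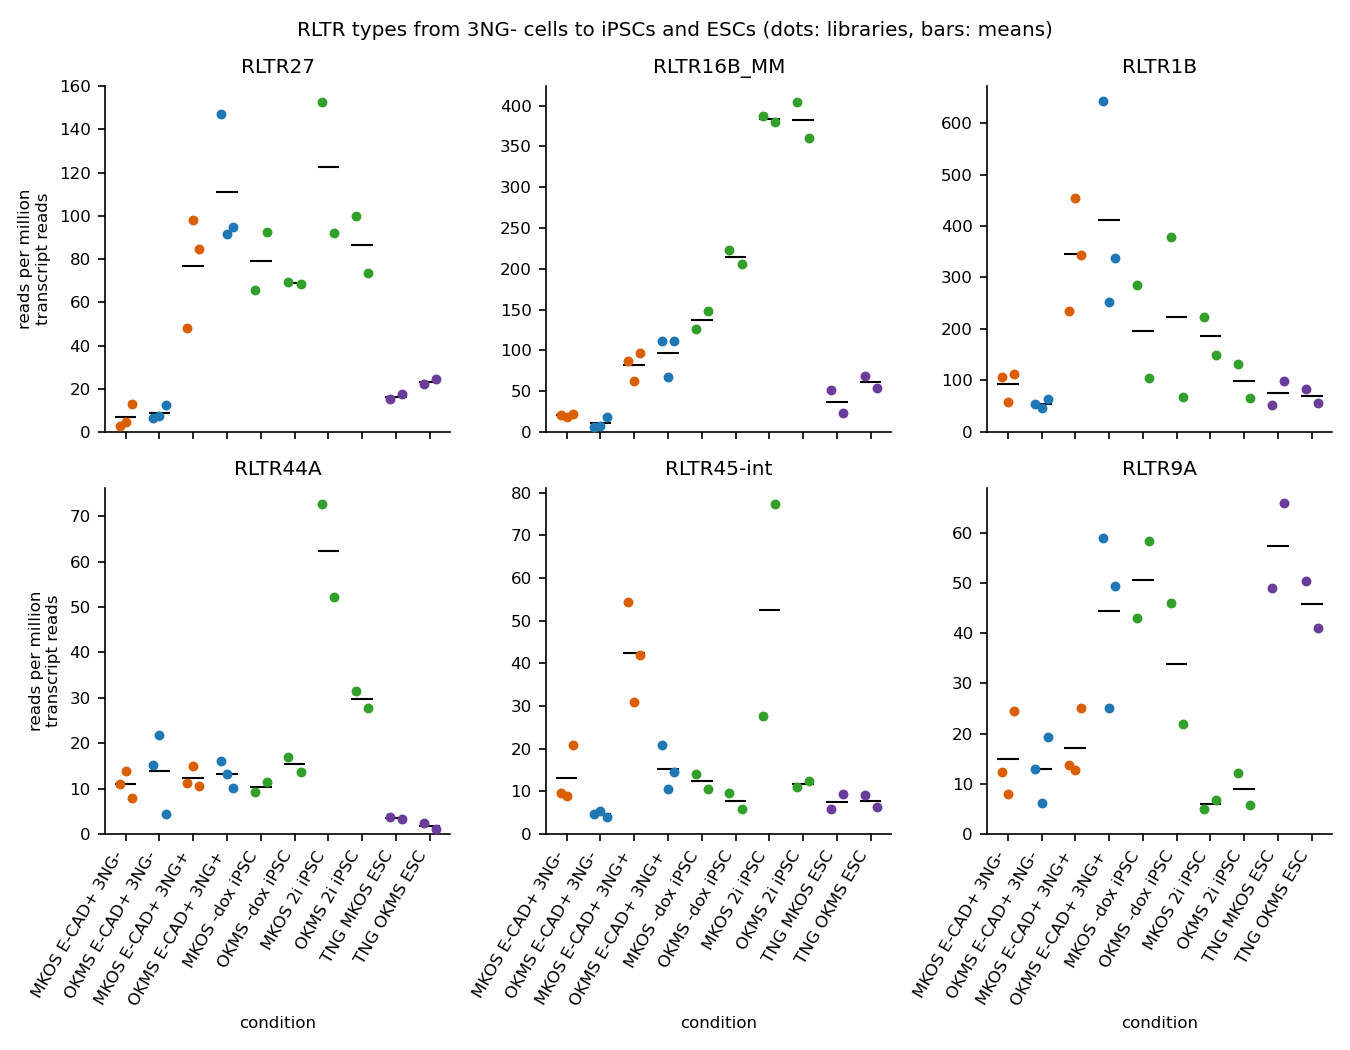
Levels of RLTR27, RLTR16B_MM, RLTR1B, RLTR44A, RLTR45-int and RLTR9A (RPM, linear axes from 0) in 3NG- and 3NG+ cells, -dox and 2i iPSCs and TNG ESCs of both cassettes, with a point per library and a bar at the mean. RLTR27 and RLTR16B_MM are at most 13.02 and 21.7 in 3NG- cells and 47.95 to 147 and 62.6 to 111 in 3NG+ cells.

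Few RLTR types were called between 3NG+ cells and established iPSCs without doxycycline. With MKOS 3 types were higher in 3NG+ cells and 1 was lower, beside 2% of everything tested (1.23% higher and 0.765% lower). RLTR13B2 was at 21.0, 36.5 and 38.1 in 3NG+ cells and at 5.18 and 1.77 in the iPSCs (log2 fold change 3.21 ± 0.72, adjusted p = 0.00939), a call lost without iPSC replicate 2 (adjusted p = 0.188). RLTR1B-int was at 94.6, 116 and 102 against 44.7 and 33.9 (log2 fold change 1.44 ± 0.33, adjusted p = 0.00968), a call lost without either iPSC library (0.0674 to 0.167). RLTR34B_MM was lower, at 44.4, 60.2 and 58.2 against 141 and 144 (log2 fold change -1.35 ± 0.29, adjusted p = 0.00638), a call lost without iPSC replicate 2 (0.06). RLTR45-int, at 54.3, 31.0 and 42.0 against 13.999 and 10.6, lost its call without 3NG+ replicate 1 or either iPSC library (0.0685 to 0.209). The count of 4 fell to 0 without iPSC replicate 2 and to 2 without iPSC replicate 1. With OKMS no type was called by edgeR (15 at an unadjusted p under 0.05, 2 by DESeq2; edgeR called 1 without 3NG+ replicate 2 and 2 without iPSC replicate 2), beside 0.634% of everything tested (0.317% in each direction). RLTR34B_MM there was at 140, 172 and 121 in 3NG+ cells and 299.6 and 153 in iPSCs. The lowest p by edgeR belonged to RLTR9E and RLTR1B-int, both higher in OKMS 3NG+ cells without overlap. RLTR9E was at 817 to 1190 against 208 and 437 (adjusted p = 0.0529). RLTR1B-int was at 63.0 to 110 against 33.3 and 41.2 (adjusted p = 0.0642). Of the 177 RLTR types tested with OKMS, 87 had a positive log2 fold change. Fibroblast markers were higher in 3NG+ cells, 5 of 7 with each cassette, at sums of 92.4 to 579.4 against 4.67 and 7.45 with MKOS and 135.6 to 287.8 against 25.6 and 4.81 with OKMS. Macrophage sums were 67.1 to 863.8 against 9.75 and 23.8 with MKOS, where 1 of 5 markers was called higher, and 38.9 to 707.1 against 9.69 and 18.7 with OKMS, where none was. The part of these markers in the RLTR differences was not tested.

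Between iPSCs without doxycycline and TNG ESCs that carry the same cassettes, 7 RLTR types were higher in iPSCs and none was lower, beside 1.44% of everything tested (1.18% higher and 0.263% lower). RLTR16B_MM was at 126 and 149 in MKOS and 223 and 205 in OKMS iPSCs, and at 51.2 and 23.0 in TNG MKOS and 68.1 and 53.4 in TNG OKMS ESCs (log2 fold change 1.98 ± 0.32, adjusted p = 0.000171). RLTR27 was at 65.7 to 92.4 in these iPSCs and 15.1 to 24.4 in the ESCs (log2 fold change 2.06 ± 0.45, adjusted p = 0.00856), a call lost without TNG MKOS replicate 2 or TNG OKMS replicate 1 (adjusted p = 0.0843 to 0.0917). E14 ESCs, a wild-type line that was not in this comparison, held 62.5 and 55.5 of RLTR27 and 82.5 and 82.4 of RLTR16B_MM. TNG ESCs without a cassette were lower, at 17.2 and 15.2 of RLTR27 and 25.9 and 30.5 of RLTR16B_MM. The difference therefore also lay between ESC lines, and its test was not made. Of the 6 RLTR44 types 3 were higher in iPSCs, led by RLTR44A at 9.23 to 16.9 against 0.984 to 3.81 (log2 fold change 2.54 ± 0.48, adjusted p = 0.00143). RLTR34B_MM was at 141 to 300 in iPSCs and 64.5 to 114 in ESCs (log2 fold change 1.28 ± 0.23, adjusted p = 0.000602). RLTR44E (adjusted p = 0.0462) lost its call without any 1 library other than OKMS iPSC replicate 2 (0.0632 to 0.271). The count fell from 7 to 4 without TNG MKOS replicate 2, TNG OKMS replicate 1 or OKMS iPSC replicate 1.

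The medium of the iPSCs was compared as 2i, with inhibitors of MEK and GSK3, against -dox culture. In 2i 7 RLTR types were higher and 3 were lower, beside 4.11% of everything tested (1.79% higher and 2.32% lower). With the repeat types fitted alone the split was 5 and 5. RLTR1B-int was at 150 and 221 (MKOS) and 119 and 121 (OKMS) in 2i, and at 44.7, 33.9, 41.2 and 33.3 without (log2 fold change 1.86 ± 0.25, adjusted p = 2.65e-06). RLTR13B2 was at 41.7, 76.5, 13.2 and 20.6 in 2i, and at 5.18, 1.77, 5.36 and 5.52 without (log2 fold change 2.75 ± 0.52, adjusted p = 0.000902). RLTR9A went the other way, at 4.97, 6.82, 12.2 and 5.80 in 2i and 42.9, 58.4, 46.0 and 21.9 without (log2 fold change -2.62 ± 0.50, adjusted p = 0.000963). In D6 iPSCs RLTR9A was at 10.8 and 16.9, and in ESCs at 40.4 to 72.3. RLTR9E did not follow RLTR9A, with 366 to 723 in 2i and 208 to 525 without. RLTR16B_MM reached its highest levels of the study in 2i, at 361 to 404 against 126 to 223. RLTR13C3, RLTR44A, RLTR13B1 and RLTR25A (adjusted p = 0.0204 to 0.0475) each lost their call without any 1 of 5 or 6 of the 8 libraries. The exceptions were both MKOS replicates 1 for RLTR13B1 (0.0807 to 0.252), these and OKMS -dox replicate 1 for RLTR13C3 (0.0572 to 0.185), MKOS and OKMS 2i replicate 2 for RLTR44A (0.0562 to 0.0857), and MKOS -dox replicate 2 and OKMS -dox replicate 1 for RLTR25A (0.0542 to 0.089), and the count of 10 fell to 4 without either OKMS 2i library, to 5 without MKOS 2i replicate 2 or either -dox replicate 2, and to 6 without MKOS 2i replicate 1.

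By count, genes listed for the repression of ERVs were called most often in the comparisons with MEFs, where everything tested was called most often too. The list of 31 also held Tet1, Tet2 and Tet3, whose products remove DNA methylation. It held Zfp42 too, which was also counted among the ESC transcription factors and the pluripotency markers. Of these 31 genes 24 were higher and 2 lower in ESCs than in MEFs (29.5% and 28.7% of everything tested), with a median log2 fold change of 1.66. In MKOS and OKMS intermediates 17 and 20 were higher than in their MEFs (16.1% and 16.2% of everything tested), with medians of 0.80 and 0.93. Of the list 0 and 1 were lower (14.9% and 16%). Between OKMS E-CAD+ and E-CAD- cells, where 23 RLTR types were higher, 3 genes of the list were higher (4.66% of everything tested) and none was lower, at a median of 0.07. Between iPSCs and TNG ESCs, where 7 RLTR types were higher, none of the 31 was called (median -0.25). Dnmt3l, a cofactor of the de novo DNA methyltransferases, was higher by 11.11 on the log2 scale in ESCs, and Dnmt3b, one of these methyltransferases, by 6.99. Trim28, the co-repressor that brings SETDB1 to ERVs, had condition means of 118 to 127 in MEFs and 495 to 1144 in iPSCs and ESCs. From 3NG- to 3NG+ Suv39h1, a histone H3 lysine 9 methyltransferase, fell by 1.91 (MKOS) and 1.98 (OKMS) on the log2 scale, whereas 3 and 13 genes of the list were higher (0.777% and 3.54% of everything tested), with medians of 0.42 and 0.63. In 2i Dnmt3a, Dnmt3l and Dnmt3b were lower than in -dox iPSCs (log2 fold changes of -2.92, -2.39 and -1.90) and no gene of the list was higher (median -0.22). In 2NG- cells Dnmt3b was lower with MKOS (-2.81) and Zfp42, a pluripotency gene related to Yy1, was higher (2.60).

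Of 15 ESC transcription factors 12 were higher in ESCs than in MEFs and 1 lower (29.5% and 28.7% of everything tested), with a median log2 fold change of 8.26. The 15 include Pou5f1 (Oct4), Sox2, Klf4 and Myc, which the cassettes encode, and the sorted cells were reprogrammed in doxycycline. Reads from a cassette were not separated from those of the endogenous gene, so the counts below do not show endogenous expression alone. With MKOS 9 and with OKMS 10 were higher in the intermediates than in the MEFs (16.1% and 16.2% of everything tested), and 2 and 4 were lower (14.9% and 16%). In OKMS E-CAD+ against E-CAD- cells 9 were higher and 1 was lower (4.66% and 2.34%). With MKOS as against OKMS 6 were higher in 2NG- cells (2.79%), 5 in 3NG- cells (1.33%) and 0 in 3NG+ cells (0.329%), and none was lower. From 3NG- to 3NG+ 7 were higher with OKMS (3.54%) and 0 with MKOS (0.777%), and none was lower.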

How the data were processed

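The authors sequenced 5' cDNA ends by STRT, aligned reads with Bowtie (version 0.12.7 and build mm10 in the submitters' processing notes, while the study's methods name NCBI build 37.1, so no coordinates are given here) and deposited a table of raw read counts for 24264 transcripts, 1554 repeat types and 104 spike-ins in 48 libraries. Reads with several matches were assigned by the authors to the most 5' exonic match. Repeat counts sum sense and antisense reads over all copies of a type, and the minimum and total hits were equal for every repeat type, so uniquely placed reads could not be separated.

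Levels were computed here as reads-per-million of transcript reads (RPM). Counts, without spike-ins, were fitted in R 4.3.3 with edgeR 4.0.16 (quasi-likelihood F test, filterByExpr, 1 coefficient per condition, all 48 libraries in 1 fit, common dispersion 0.221). Library size was the number of reads on transcripts, with TMM factors of 0.852 to 1.23 from transcripts. In all 16729 features (15630 transcripts, 1099 repeat types) passed the filter, and p-values were adjusted by Benjamini-Hochberg over them with a threshold of 0.05. A fold against a group without reads was bounded with 3 reads over the group, and counting intervals were exact at 95% and cover counting error only. No 2 libraries held identical counts. Types named are the 12 most abundant and, in each comparison, up to 5 called types per direction with the largest log2 fold change and no overlap between the sides. RLTR6B_Mm in ESCs against MEFs, RLTR6-int, RLTR19-int, RLTR4_Mm, RLTR49 and other types given where they were not picked by that rule were chosen after their values were seen.

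Alternatives were DESeq2 1.42.0, DESeq2 size factors, library sizes from transcripts and repeats, repeat types alone, no filter, a replicate block, the compared libraries alone, and each library left out (keeping the dispersion trend of all libraries). Simulated counts for MKOS against OKMS in 2NG- cells, with 200 of 12234 features changed, gave 146 calls, of which 135 were changed features and 11 were not. Only the libraries of these conditions were simulated and fitted, with changes placed on well-read features and the fitted dispersion trend taken as true. The simulation therefore does not cover types near the floor or the fit of all libraries. Tables and plots used Python 3.11.15, pandas 2.3.3, NumPy 2.4.6 and Matplotlib 3.10.9. The members, gene lists (ERV repression, ESC transcription factors, markers of fibroblasts, pluripotent, epithelial, primitive endoderm, trophoblast and macrophage cells) and tests were chosen with earlier results of these data known. No sequence of an RLTR type was used here.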

Additional observations from a re-analysis of the deposited data

Results flagged for a closer look

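RLTR41 was the type whose change from MEFs to E-CAD+ NG- cells differed between cassettes by the edgeR interaction test. The difference, OKMS minus MKOS, was -2.66 on the log2 scale, and it lost its call without MKOS MEF replicate 1 or OKMS MEF replicate 2.

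RLTR49 moved in opposite directions with the cassettes, a difference of -3.06 on the log2 scale (OKMS minus MKOS) that was not tested beyond the interaction fit, where it was not called. It was at 0.409 and 0.665 RPM in MKOS MEFs and 1.08 to 4.80 in the MKOS intermediates, and at 3.71 and 3.44 in OKMS MEFs and 1.19 to 2.47 in the OKMS intermediates. These levels are near that of 3 reads in the libraries.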

How the results depend on the processing

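No named type reversed its direction in any alternative. Of 75 named results, 75 kept their call with DESeq2 and with DESeq2 size factors, 74 with library sizes from transcripts and repeats, 68 with repeat types alone, 70 without the filter, 71 with a replicate block and 71 with the compared libraries alone; 495 of 612 did so with 1 library left out, and 45 never lost it.

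The count of called RLTR types moved by over 1.5 times as follows. DESeq2 gave 3 for the interaction from MEFs (1 by edgeR), 15 and 9 for the cassettes in 2NG- and 3NG- cells (9 and 4), 15 for MKOS 3NG+ against 3NG- (9), 2 for OKMS 3NG+ against iPSCs (0) and 12 for iPSCs against ESCs (7). Without the filter the counts were 5 for the interaction from MEFs, 15, 9 and 6 for the cassettes in 2NG-, 3NG- and 3NG+ cells, 18 for MKOS 3NG+ against 3NG-, 4 for the interaction of that step, and 10 and 5 for 3NG+ against iPSCs with MKOS and OKMS. With the compared libraries alone they were 16 for E-CAD+ against E-CAD-, 4 for the cassettes in 3NG+, 20 and 20 for 3NG+ against 3NG- with MKOS and OKMS, 1 for their interaction, and 9 and 1 for 3NG+ against iPSCs. Repeat types alone gave 5 and 14 for 3NG+ against 3NG- with MKOS and OKMS. That scaling also changed the split of higher to lower calls to 5 and 5 in 2i (7 and 3), 3 and 4 in 2NG- (5 and 4), 3 and 0 in 3NG- (3 and 1), 1 and 2 in 3NG+ (0 and 2) and 3 and 0 in MKOS 3NG+ against iPSCs (3 and 1). It shifted the median of all repeat types by -0.51 in ESCs against MEFs and by -0.41 and -0.61 in MKOS and OKMS 3NG+ against 3NG-. DESeq2 size factors shifted the median of all features by -0.15 in ESCs against MEFs. The cause was not tested.

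With the sorted libraries of replicate 3 alone, chosen after the data were seen and with each lone library assumed to vary like the other groups, counts were 3 for the interaction from MEFs, 16 for E-CAD+ against E-CAD-, 0 for the cassettes in each of the 3 gates, 0 and 1 for 3NG+ against 3NG- with MKOS and OKMS, and 1 for MKOS 3NG+ against iPSCs. Fewer libraries entered these fits.

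With 1 library left out the counts ranged from 85 to 99 in ESCs against MEFs, 30 to 39 and 30 to 46 for MKOS and OKMS intermediates, 0 to 2 for their interaction, 20 to 25 for E-CAD+ against E-CAD-, 5 to 8, 2 to 3 and 1 to 2 for the cassettes in 2NG-, 3NG- and 3NG+, 2 to 10 and 19 to 34 for 3NG+ against 3NG- with MKOS and OKMS, 0 to 0 for their interaction, 0 to 4 and 0 to 2 for 3NG+ against iPSCs, 4 to 8 for iPSCs against ESCs and 4 to 7 for 2i.

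The replicate block gave 66 types in ESCs against MEFs (99 without it) and changed no other count by over 1.5 times. The correlation of deviations was over 0.1 in 21 of 84 same-numbered pairs (mean 0.0778) and in 2 of 168 differently numbered pairs (mean -0.0389). Same-numbered libraries thus resembled each other somewhat more, but not in every pair, so the numbers were not taken to pair the libraries. Scaled to all reads the mean summed RLTR level over conditions was 2154.6 RPM (2724.1 RPM scaled to transcript reads), and the median type had 3.95 (4.97). Depth limited types near 3 reads, which is 0.212 to 2.1 RPM.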
